A study of Mus musculus with 6 samples.

Results

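The miR-15, miR-16 and miR-195 family was examined in the short RNAs that Argonaute (Ago) proteins hold in the mouse brain. Its 7 members were chosen by name, as the sequences annotated as mmu-miR-16-5p, mmu-miR-15a-5p, mmu-miR-15b-5p, mmu-miR-195a-5p, mmu-miR-497a-5p, mmu-miR-322-5p or mmu-miR-503-5p, written without the species prefix from here on. They were 7 of 782 annotated mature miRNAs, and 441 of 65087 unique sequences above 0 in at least 1 mouse. The samples were 3 WT mice and 3 Tau tg mice, all males aged 3 months on a C57BL/6J background per the study's methods. The Tau tg mice carried a fragment of human tau driven by the Thy 1.2 promoter, which is active mainly in neurons, and the WT mice carried no transgene. Each sample was 1 mouse. The tissue was hippocampus per the sample names and the study's account of this model, while its general protocol gives cortex with hippocampus. Bound RNA was taken up with a GW182 peptide that binds Ago proteins, then sequenced.

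A miRNA guides the RNA-induced silencing complex to mRNAs that pair with its seed, a short stretch near its 5' end, and the complex then lowers the output of those mRNAs. Members of this family share their seed and are known for restraining cyclins and other cell cycle genes and the survival factor BCL2. The hairpins of miR-15a and miR-16-1 are known for being lost together in chronic lymphocytic leukaemia. The study scored each 6mer seed, read positions 2 to 7, by how many cells, in percent, stay viable once they receive a short RNA that carries it, so that toxic seeds have a low viability.

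The RefSeq mature sequences (GRCm38.p6) are shown because the shared seed is what puts these miRNAs in a family and sets their viability score. Capitals mark positions 2 to 8. The first 6 members share the extended seed AGCAGCA.
miR-16-5p: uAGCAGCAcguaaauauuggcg
miR-195a-5p: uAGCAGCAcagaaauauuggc
miR-15a-5p: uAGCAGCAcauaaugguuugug
miR-15b-5p: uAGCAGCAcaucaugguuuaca
miR-497a-5p: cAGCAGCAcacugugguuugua
miR-322-5p: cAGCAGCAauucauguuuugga
miR-503-5p: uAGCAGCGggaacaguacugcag

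All 7 sequences hold the 6mer seed AGCAGC, with a viability of 37.8%, and miR-503-5p differs from the rest at position 8. Outside the seed the members form closer pairs. miR-16-5p and miR-195a-5p were identical at 19 of 21 positions (90.5%), and miR-15a-5p and miR-15b-5p at 18 of 22 (81.8%). The least alike were miR-497a-5p and miR-503-5p, at 10 of 22 (45.5%). Over the first 18 positions miR-15a-5p and miR-15b-5p differed at 1 position, so short reads of that pair rest on 1 base.

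The genes lie in 4 clusters of the GRCm38 build. Mir15b and Mir16-2 are on chromosome 3 (69009772 to 69009835 and 69009902 to 69009996, plus strand), in an intron of Smc4, a condensin subunit gene. Mir15a and Mir16-1 are on chromosome 14 (61632027 to 61632110 and 61631880 to 61631972, minus strand), in an intron of the noncoding gene Dleu2. Mir497 and Mir195a are on chromosome 11 (70234717 to 70234800 and 70235042 to 70235135, plus strand), and Mir322 and Mir503 on chromosome X (53054255 to 53054349 and 53053984 to 53054054, minus strand). Apart from miRNA genes, which were left out of this search, no annotated gene held the mature sequence of any of the last 4 hairpins. miR-16-5p has the same mature sequence from both of its hairpins, so its reads cannot be assigned to chromosome 3 or 14.

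The libraries held 998248 to 6879551 reads, with the most in Tau tg 1 and the fewest in WT 3. Levels are given in RPM, for which the authors scaled each sample to one library size, and a floor of 3 reads stood at 0.427 to 2.75 RPM. Mature miRNAs made up 82.7% to 92.4% of the reads. All 6 neuronal marker miRNAs were detected, and their sum was 156403 to 164875 RPM for WT against 154493 to 173066 RPM for Tau tg. Within that sum miR-9-5p was at 29427 to 37677 RPM for WT and at 44565 to 48005 RPM for Tau tg, without overlap, while miR-124-3p was at 62254 to 90279 RPM and at 47769 to 70188 RPM.

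The family was abundant. Its members summed to 22897, 15966 and 16899 RPM for WT 1, 2 and 3, against 22692, 19249 and 17691 RPM for Tau tg 1, 2 and 3. The group means of 18588 ± 3761 and 19877 ± 2559 RPM (SD, n = 3) differed by less than the spread between mice of either group. As a share of miRNA reads the family took 2.31% ± 0.302 in WT and 2.3% ± 0.194 in Tau tg (SD, n = 3). Among miRNA reads with a seed viability under 50%, to which nearly all its reads belong, it took 9.84% ± 1.46 in WT and 9.44% ± 0.59 in Tau tg (SD, n = 3). AGCAGC ranked 11 among 4051 seeds by mean level, and 19.5% of those seeds had a lower viability. Among miRNA seeds under 50% viability only UCAAGU and CACAGU were more abundant.

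**Figure D1:**
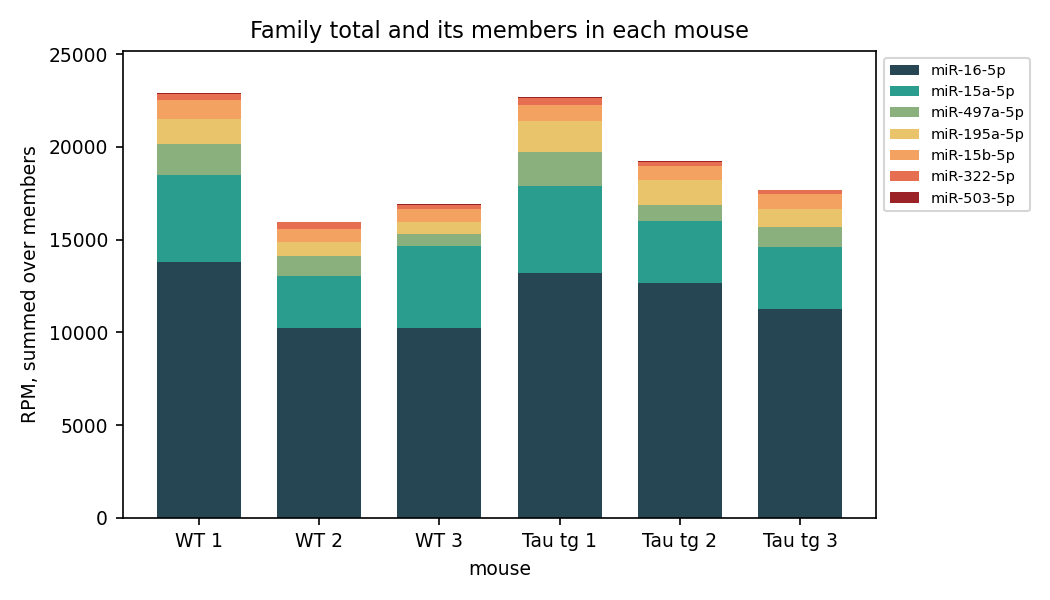
Stacked bars of RPM for the 7 members in each of the 3 WT and 3 Tau tg mice, 1 bar per mouse. WT 1 and Tau tg 1 hold the tallest bars, at 22897 and 22692 RPM, and in each mouse miR-16-5p fills over 50% of the bar.

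The levels of the members followed 1 order in most mice. miR-16-5p led with 62% of the family's reads on average (58.1% to 65.7% per mouse), and ranked 16 among all miRNAs by mean RPM. miR-15a-5p came next with 20.2%. miR-497a-5p, miR-195a-5p and miR-15b-5p followed with 6.06%, 5.76% and 4.26%, then miR-322-5p with 1.48% and miR-503-5p with 0.161%. All members are of nearly the same length, and their RPM levels were compared directly within each mouse. How efficiently each sequence was captured and ligated to adapters was not measured, so the order is one of reads.

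Neighbours in this order were compared by an exact two-sided sign-flip permutation test of the log2 ratio over the 6 mice, adjusted over 6 pairs. The order was set on these same mice, so the p-values describe how steady it was and are not independent support for it. miR-16-5p exceeded miR-15a-5p by 1.63 ± 0.26 (log2, SD, n = 6) in 6 of 6 mice, with an exact p of 0.0312 and an adjusted p of 0.0469. The same exact p, the smallest that 6 mice allow, was reached by miR-15a-5p over miR-497a-5p (1.78 ± 0.54), miR-15b-5p over miR-322-5p (1.57 ± 0.43) and miR-322-5p over miR-503-5p (3.44 ± 1.66). miR-497a-5p and miR-195a-5p, which come from the same cluster, did not differ beyond their spread, with a log2 ratio of 0.05 ± 0.41 (SD, n = 6) and an exact p of 0.75. miR-195a-5p over miR-15b-5p was 0.41 ± 0.4, higher in 5 of 6 mice, with an exact p of 0.0625 and an adjusted p of 0.075.

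**Figure D2:**
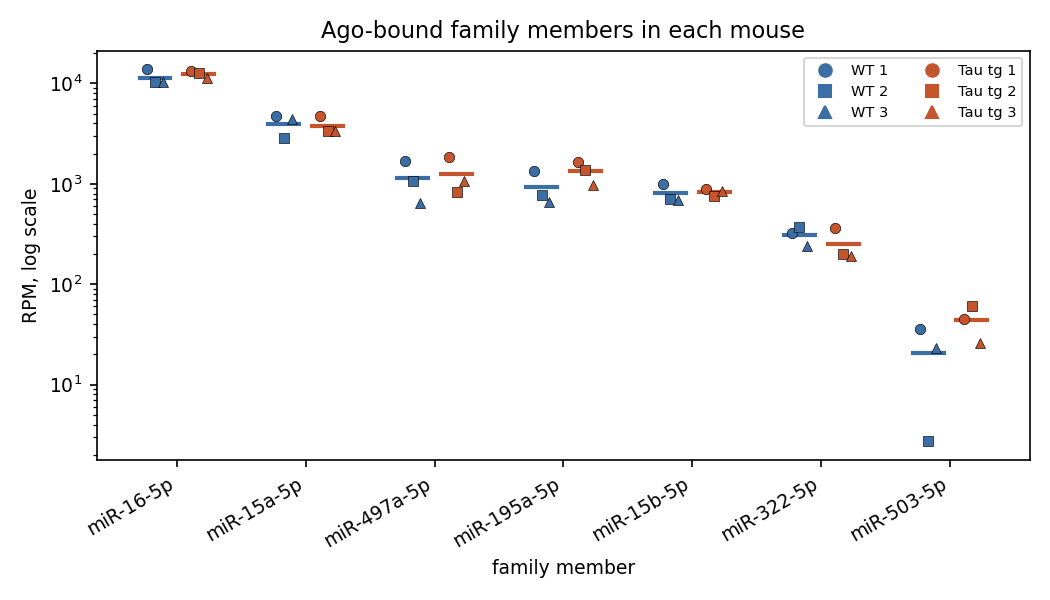
RPM of each member on a log axis, with 1 point per mouse (blue WT, orange Tau tg) and a bar at each group mean. The WT and Tau tg points of each of the 7 members overlap, from miR-16-5p at 10216 to 13808 RPM down to miR-503-5p at 2.71 to 60.2 RPM.

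Each member was then compared between Tau tg and WT, which asks whether tau changes the load of this toxic seed in the silencing complex. No member passed the test. None of the 7 had a limma unadjusted p under 0.05, where 3.63% of the 689 miRNAs tested had one (25 miRNAs, 14 with a higher level in Tau tg, 2.03%, and 11 with a lower one, 1.6%). After Benjamini-Hochberg adjustment limma and edgeR called 0 of the 689 and DESeq2 called 5, and no member was among the calls of any of these tools. In each member the WT and Tau tg levels overlapped, while 9.53% of the miRNAs above 0 in all 6 mice had groups that did not. Over all miRNAs the log2 change had a median of 0.25, beside which the values of the members are read.

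mmu-miR-16-5p, the main member and one of the most widely expressed miRNAs, measured 13808, 10216 and 10226 RPM for WT 1, 2 and 3. For Tau tg 1, 2 and 3 it measured 13191, 12649 and 11249.5 RPM. WT 1 was the highest of all mice and the other WT mice were the lowest, so the Tau tg values lay inside the WT range. This gave a log2 change of 0.13 ± 0.3 (SE), with a 95% interval of -0.51 to 0.77 and a limma adjusted p of 0.954. Its sign turned under median-of-ratios scaling, to -0.03.

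mmu-miR-195a-5p had the largest log2 change among the 5 members with the highest levels. It measured 1355, 770.4 and 657 RPM for WT 1, 2 and 3, against 1667, 1366 and 977 RPM for Tau tg 1, 2 and 3. All 3 Tau tg mice were above the WT mean of 927 ± 374 RPM (SD, n = 3), but WT 1 lay among them. The log2 change was 0.57 ± 0.36 (SE), or 0.32 above the median miRNA, with a 95% interval of -0.2 to 1.33, a limma p of 0.137 and an adjusted p of 0.896. With 1 mouse left out it ran from 0.35 without WT 3 (limma p of 0.373) to 0.87 without WT 1 (limma p of 0.0309, adjusted p of 0.633), and only the latter p was under 0.05. miR-497a-5p, made from the same transcript, measured 1688, 1061 and 644 RPM for WT against 1848, 836 and 1071 RPM for Tau tg. WT 3 was the lowest and Tau tg 1 the highest of the 6 mice. Its log2 change was 0.17 ± 0.4 (SE), with a limma adjusted p of 0.954.

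mmu-miR-15a-5p, the partner of miR-16 on chromosome 14, measured 4683, 2839.85 and 4411 RPM for WT against 4694, 3376 and 3337 RPM for Tau tg. WT 2 was the lowest, and WT 1 and Tau tg 1 were level at the top. Its log2 change was -0.05 ± 0.32 (SE), with a 95% interval of -0.72 to 0.62 and a limma adjusted p of 0.976. miR-15b-5p, the partner of miR-16 on chromosome 3, measured 1004, 709 and 695 RPM for WT against 882, 762 and 839.98 RPM for Tau tg. The 3 Tau tg values were closer together than the WT values, and WT 1 was the highest of the 6. Its log2 change was 0.06 ± 0.33 (SE), with a limma adjusted p of 0.972, and its sign turned to -0.1 under median-of-ratios scaling and -0.04 when scaled to the miRNA reads.

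The pair on chromosome X had estimates of opposite sign, neither past the test. miR-322-5p, the mouse counterpart of human miR-424, measured 324, 367 and 242 RPM for WT against 364, 199 and 191 RPM for the Tau tg mice. The first of these was close to the highest WT mouse and the others were below every WT mouse. The log2 change was -0.35 ± 0.42 (SE), with a limma adjusted p of 0.896. miR-503-5p, which shares that transcript, measured 35.6, 2.71 and 22.9 RPM for WT against 45.2, 60.2 and 25.8 RPM for Tau tg. WT 2 was far below the other mice, with a level close to its floor of 2.03 RPM. The log2 change was 1.51 ± 0.97 (SE), with a 95% interval of -0.55 to 3.58 and a limma adjusted p of 0.896, and it was 0.52 without WT 2.

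**Figure D3:**
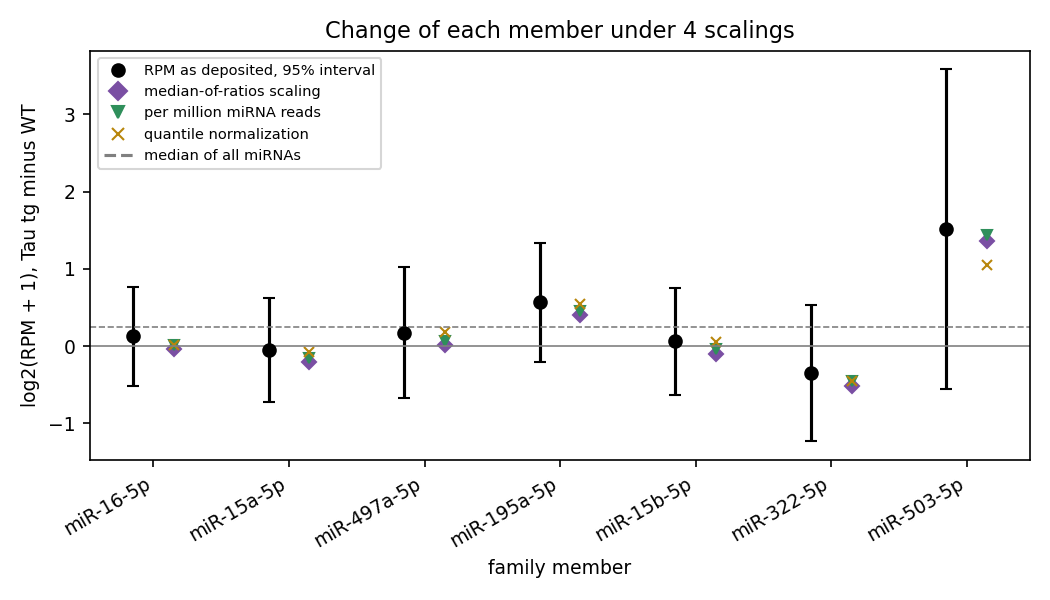
Change from WT to Tau tg of each member on the log2(RPM + 1) scale, with the 95% limma interval for RPM as deposited and the estimates under 3 other scalings. All 7 intervals include 0, and the dashed line marks the median of all miRNAs at 0.25 for RPM as deposited.

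Reads were also followed by seed. AGCAGC made up 97.5% of the family's reads, and no other of the family's 48 seeds reached 1%. In turn the family supplied 98.4% of all reads with AGCAGC (98.2% to 98.7% per mouse), and reads with no mature miRNA annotation supplied 1.27%. miR-103-3p and miR-107-3p, whose annotated forms start 1 base later, supplied 0.24% and 0.0898%. Summed over all reads, AGCAGC measured 22584, 15870.2 and 16759.6 RPM for WT 1, 2 and 3. For Tau tg 1, 2 and 3 it measured 22441, 19055 and 17685 RPM. The highest and the lowest value were both in WT. AGCAGC had a log2 change of 0.11 ± 0.36 (SE), with a limma p of 0.758 and an adjusted p of 0.992, where 4.31% of 3987 seeds had an unadjusted p under 0.05. It was -0.05 under median-of-ratios scaling but 0.46 with edgeR and 0.38 with DESeq2 on the reads, with unadjusted p of 0.375 and 0.317 in those tools. By miRNA, edgeR gave 4.3e-05 for miR-16-5p, -0.2 for miR-15a-5p, -0.07 for miR-15b-5p, 0.046 for miR-497a-5p and -0.44 for miR-322-5p. For miR-195a-5p and miR-503-5p it gave 0.43 and 0.998. Each tool estimated its scaling separately for seeds and for miRNAs, and the part of this in the gap was not tested.

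The viability that the family carried had little room to vary between mice, since nearly all its reads hold AGCAGC and each seed has a fixed score. Weighted by RPM, it was 38% to 38.1% in each mouse, against 57.2% to 59.4% for all reads. Without the family the weighted viability of all reads was 57.7% to 59.8%. The difference between Tau tg and WT in that mean was -0.749 percentage points with the family and -0.747 without it. It rested largely on WT 3, without which it was -0.163 and -0.165.

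A start other than the annotated one gives a read another seed. On average over the mice, at least 91.5% of the reads of each member began at the annotated base, and a few could not be placed on the hairpin. The most abundant read with another start is shown for each member in which such reads were at least 1% of its RPM summed over the mice, with capitals at positions 2 to 7 of the read.
miR-16-5p: aGCAGCAcguaaauauuggcg
miR-15a-5p: aGCAGCAcauaaugguuugu
miR-497a-5p: aGCAGCAcacugugguuugu
miR-195a-5p: aGCAGCAcagaaauauuggca
miR-15b-5p: cUAGCAGcacaucaugguuuac
miR-322-5p: gCAGCAGcaauucauguuuug
miR-503-5p: uUAGCAGcgggaacaguacugcag

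In 4 members the leading shifted read began 1 base late and held GCAGCA, a seed with a viability of 42.4%. As means over the 6 mice, shifted reads were 1.94% of miR-16-5p, 1.62% of miR-15a-5p, 2.26% of miR-497a-5p and 2.21% of miR-195a-5p. The value of miR-15a-5p rests on Tau tg 2, in which the share was 5.05% and the leading shifted read stood at 68.6 RPM against 3.28 to 6.14 RPM in the other mice, and the mean was 0.931% without it. The miR-15b-5p and miR-503-5p reads began 1 base early and held UAGCAG, with a viability of 50.7%. The former carried G0C, counted from 1 at the annotated start with 0 as the base before it, and came almost entirely from WT 3, at 36.7 RPM there and at most 0.409 RPM in each other mouse. Shifted reads of miR-15b-5p averaged 3.3% over the 6 mice and 2.19% without WT 3, and those of miR-503-5p came from Tau tg 1 alone.

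miR-322-5p had the highest share of reads at another start, with a mean of 7.92% over the mice and a range of 0.758% to 16.6%. Its leading shifted read began 1 base early and held CAGCAG, with a viability of 59.8%, so that the weighted viability of miR-322-5p reads reached 41.8% in 1 mouse. That read measured 43.6, 30.5 and 1.84 RPM for WT 1, 2 and 3, against 32.9, 0.836 and 3.68 RPM for Tau tg 1, 2 and 3. It was high in 3 mice of both groups and near the floor in the others. The share of miR-322-5p reads with the annotated start was 91.5% ± 7.39 for WT against 91.4% ± 7 for Tau tg (SD, n = 3). The exact permutation p was 1.

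The 3' ends differed more between members than between groups. In the reads below, the most abundant read of each member is given with the seed in capitals.
miR-16-5p: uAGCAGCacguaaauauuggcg
miR-15a-5p: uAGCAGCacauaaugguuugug
miR-15b-5p: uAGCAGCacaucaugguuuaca
miR-195a-5p: uAGCAGCacagaaauauuggca
miR-497a-5p: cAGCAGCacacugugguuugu
miR-322-5p: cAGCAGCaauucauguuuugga
miR-503-5p: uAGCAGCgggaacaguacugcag

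For miR-195a-5p the leading read was 22 nt, 1 base longer than the annotated 21 nt, and the extra a is the next base of the hairpin. Reads longer than annotated made up 58.9% of miR-195a-5p (55.1% to 61.5% per mouse), against 17.9% of miR-16-5p and 1.45% of miR-15b-5p. For miR-497a-5p the leading read was 1 base shorter than annotated, and shorter reads made up 74.2% of that member (68.9% to 81.4% per mouse). miR-16-5p was the most uniform, with 61.9% of its reads equal to the annotated sequence, while 34.1% of miR-15a-5p reads and 17.2% of miR-497a-5p reads were.

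Added bases that the hairpin does not hold, called untemplated tails here, were most frequent in miR-15a-5p and miR-322-5p. Tailed reads were 26.8% of miR-15a-5p, 25.8% of miR-322-5p, 11.5% of miR-16-5p, 10.3% of miR-195a-5p, 7.4% of miR-497a-5p and 2.78% of miR-15b-5p, as means over the 6 mice. The leading tailed reads show the contrast between members, with the tail in capitals.
miR-15a-5p with U: uagcagcacauaaugguuugugU
miR-15a-5p with A: uagcagcacauaaugguuugugA
miR-16-5p with A: uagcagcacguaaauauuggcgA
miR-195a-5p with A: uagcagcacagaaauauuggcaA

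In miR-15a-5p both bases were added, with tails of U only in 14.5% of reads (7.96% to 19.6% per mouse) and tails of A only in 11.6% (7.9% to 13.8%). In miR-16-5p, which is made from the hairpin beside it, tails of A were 10.3% and tails of U were 0.315%. miR-195a-5p resembled miR-16-5p, with 8.95% and 0.343%. miR-15b-5p, which differs from miR-15a-5p at 4 of 22 positions, had 1.35% and 1.13%. An added base equal to the next base of the hairpin cannot be told apart from it and was not counted as a tail. The 23-nt read of miR-16-5p that ends in such a u held 9.43% of its RPM. For miR-195a-5p the like read held 4.98%. Tail shares are therefore lower limits, and the contrast in U tails partly depends on the hairpin sequence. Most miR-322-5p reads with an added A or AA also spell its human counterpart, and their source was not tested.

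**Figure D4:**
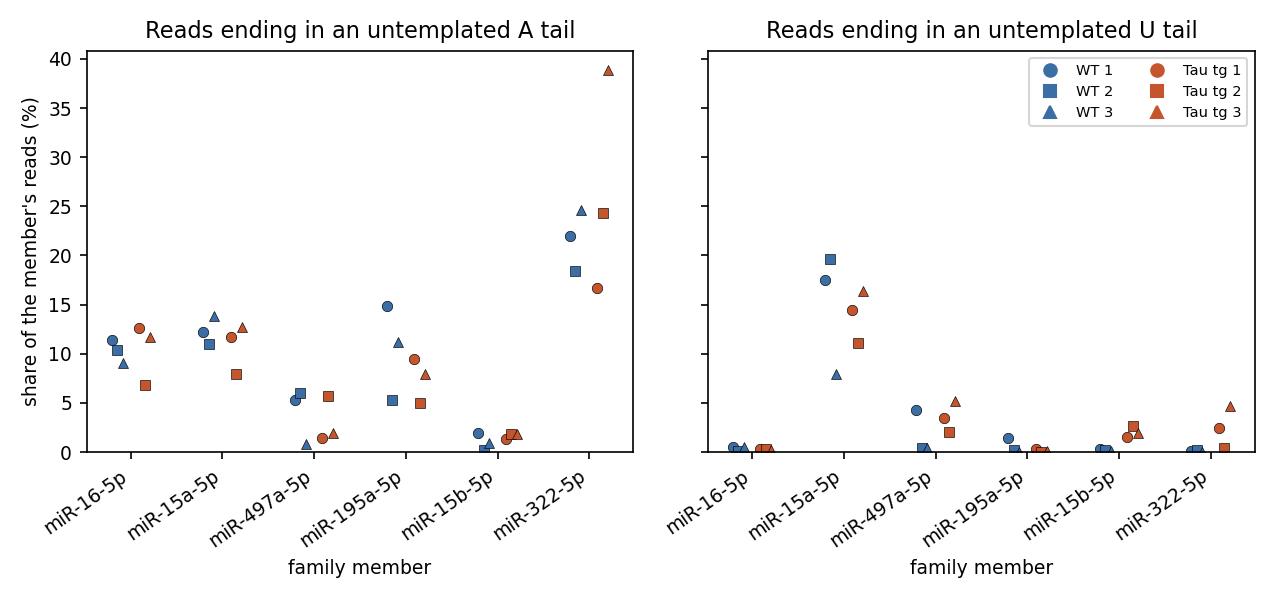
Share of each member's reads that end in an untemplated tail of A (left) or of U (right), in percent, with 1 point per mouse (blue WT, orange Tau tg). miR-15a-5p is the member with a U tail in over 7% of reads in each mouse, and miR-503-5p was left out for its low level. An added base that equals the next hairpin base is not counted as a tail.

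Between the groups, 5 measures of form were tested in each of 6 members by an exact two-sided permutation test over 20 assignments of the mice, with miR-503-5p under 100 RPM left out. Of these 30 measures 5 (16.7%) did not overlap between the groups, where 9.31% of single sequences and 9.53% of miRNAs did not. Those background shares are of RPM levels, and form was not measured in other miRNAs, so the comparison is of unlike quantities. Among the 5, the share of shorter reads and the mean length of miR-15a-5p measure the same shift. Each had an exact p of 0.1, the smallest that 3 mice against 3 allow, and an adjusted p of 0.6. Reads of miR-15a-5p shorter than annotated were 33.1%, 33.3% and 28% for WT against 43.5%, 37.5% and 42.1% for Tau tg, and its mean length was 22 ± 0.0398 against 21.8 ± 0.0259 nt (SD, n = 3). For miR-195a-5p the shorter reads were 14%, 15.5% and 21.8% for WT against 11.5%, 8.76% and 7.25% for Tau tg, the opposite direction. Tailed reads of miR-15b-5p were 2.47%, 0.478% and 1.45% for WT against 3.51%, 4.61% and 4.14% for Tau tg. Reads of miR-16-5p with the annotated start were 97.7% ± 0.0457 in WT and 98.4% ± 0.172 in Tau tg (SD, n = 3).

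Single reads were tested with limma as well. Of the 441 member sequences, 219 had a mean of at least 1 RPM, and these held 99.5% of the family's reads. An unadjusted p under 0.05 was found for 7 of them (3.2%), where 2.23% of all 36070 sequences tested had one. Of the 7, 6 had a higher level in Tau tg, where 1.44% of all sequences did, and 1 had a lower one, where 0.787% did. The median log2 change was 0.04 over the 219 reads and -0.16 over all sequences tested. None of the 219 had a limma adjusted p under 0.05, the smallest being 0.584, while 10 of all sequences tested (0.0277%) had one. Of 74 member sequences above 0 in all 6 mice, 6 (8.11%) did not overlap between the groups, where 9.31% of all such sequences did not.

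The read with the smallest p was a minor form of miR-16-5p that ends in AU, shown with that tail in capitals beside a read of miR-195a-5p whose hairpin holds the same last bases.
miR-16-5p with AU: uagcagcacguaaauauuggcAU
miR-195a-5p: uagcagcacagaaauauuggcau
The miR-16-5p read measured 13.6, 3.39 and 8.26 RPM for WT 1, 2 and 3, against 43.4, 66.9 and 41.3 RPM for Tau tg 1, 2 and 3. All 3 Tau tg mice were above every WT mouse. The log2 change was 2.58 ± 0.86 (SE), with a limma p of 0.00276 and an adjusted p of 0.584, and over 17 alternatives the adjusted p ran from 0.277 to 0.99. At a mean of 29.5 RPM it was a small part of miR-16-5p, whose leading read averaged 7211 ± 1222 RPM for WT against 7475 ± 728 RPM for Tau tg (SD, n = 3).

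Of the other reads named by the rule, the annotated 21-nt form of miR-195a-5p measured 356, 176 and 94.5 RPM for WT against 473, 416 and 299 RPM for Tau tg. WT 1 lay inside the Tau tg range. Its log2 change was 1.1 ± 0.56 (SE), with a limma p of 0.0493 and an adjusted p of 0.584. The unadjusted p was under 0.05 in 4 of 17 alternatives and the change was 0.63 without WT 3. The longer form of miR-195a-5p measured 434, 382 and 305 RPM for WT against 749, 614 and 469.7 RPM for Tau tg, without overlap, with a limma p of 0.173. A 19-nt read of miR-322-5p (cagcagcaauucauguuuu) had a limma p of 0.0265 and an adjusted p of 0.584, but stood above 11 RPM in Tau tg 2 only, at 43.5 RPM, and the unadjusted p was under 0.05 in 10 of 17 alternatives.

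The annotated 23-nt read of miR-503-5p was at a low level in 4 of the 6 mice. For WT 1, 2 and 3 it measured 0.468, 1.35 and 1.83 RPM, each below the floor of its library. For Tau tg 1, 2 and 3 it measured 37.3, 37.6 and 0.818 RPM. Thus 2 of the 3 Tau tg mice were high, and the other was as low as WT. Its log2 change was 2.7 ± 1.12 (SE), with a limma p of 0.0155 and an adjusted p of 0.584. Reads shorter than annotated made up 97.4%, 25% and 92% of miR-503-5p for WT 1, 2 and 3, against 11.9%, 37.5% and 0% for Tau tg 1, 2 and 3, where the WT 2 share rests on 4 reads. A further 8 unique sequences from the miR-503 hairpin carried the substitution A17U, counted from 1 at the 5' end of the mature sequence, and were left without a miRNA annotation by the authors. Their sum was 30.4, 37.9 and 0.917 RPM for WT against 13.1, 47.7 and 79 RPM for Tau tg, a mean of 34.8 RPM against 32.1 RPM for the annotated miR-503-5p. The changed letters also spell the human counterpart, and their source was not tested.

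The 1 member read with a lower level in Tau tg at an unadjusted p under 0.05 carried a changed seed. It is a read of miR-497a-5p with A2G, an A-to-G change at the first base of the seed, given after its unchanged form with positions 2 to 7 in capitals.
miR-497a-5p: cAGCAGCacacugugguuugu
miR-497a-5p with A2G: cGGCAGCacacugugguuugu
The change turns AGCAGC, with a viability of 37.8%, into GGCAGC, with a viability of 9.7%. The changed read measured 33.3, 8.81 and 11.9 RPM for WT 1, 2 and 3, against 6.69, 1.67 and 2.05 RPM for Tau tg 1, 2 and 3. Each WT mouse was above each Tau tg mouse, but WT 2 by little more than 2 RPM. The log2 change was -2.04 ± 1.03 (SE), with a limma p of 0.0482 and an adjusted p of 0.584, and the unadjusted p was 0.225 without WT 1 and under 0.05 in 6 of 17 alternatives.

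Summed over read lengths, the share of miR-497a-5p reads with G at position 2 was chosen after its values were known, so no test was made. WT 1, 2 and 3 had 2.48%, 2.64% and 2.23%, against 0.836%, 2.57% and 0.233% for Tau tg 1, 2 and 3. The first and the last of the Tau tg mice were thus below every WT mouse and the other was level with them. The 95% Wilson intervals, which cover counting error only, were 2.02% to 3.05% in WT 1 and 0.691% to 1.01% in Tau tg 1. The mean share of the 6 mice was 1.83% ± 1.03 (SD, n = 6). Pooled over all mice, 278 of 21713 miR-497a-5p reads (1.28%) had the change, a value weighted towards Tau tg 1 with its 12434 reads. In the same pooled count the change was found in 0.0901% of 187489 miR-16-5p reads and in 0.0679% of 63363 miR-15a-5p reads. In miR-195a-5p it was 0.0801%, and 12 of its 16 changed reads came from Tau tg 2.

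**Figure D5:**
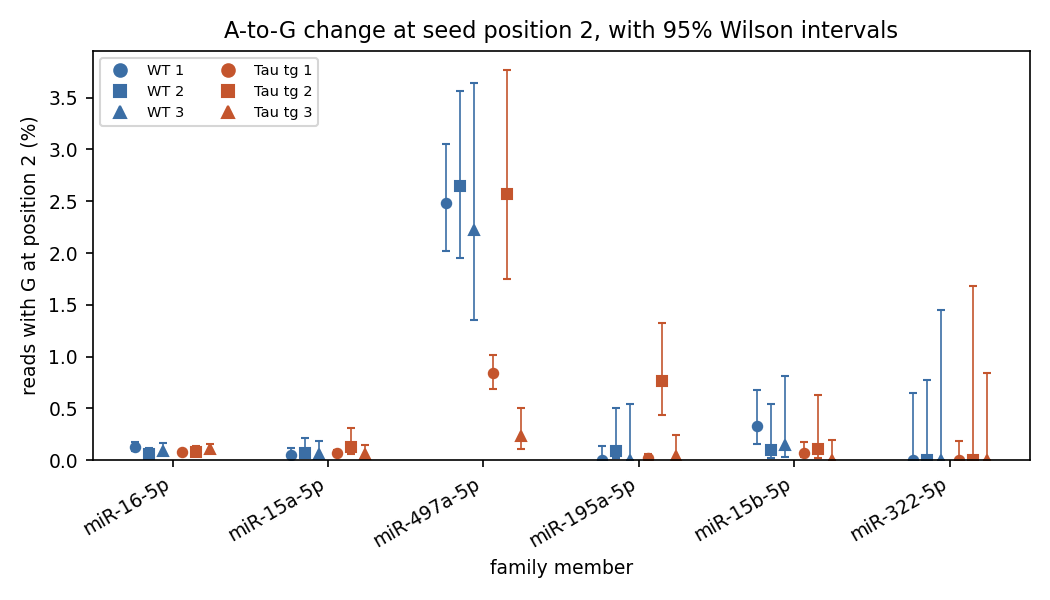
Share of reads with G in place of A at position 2, in percent, for 6 members, with 1 point per mouse and 95% Wilson intervals. miR-497a-5p is at 2.23% to 2.64% in 4 mice and at 0.233% and 0.836% in Tau tg 3 and Tau tg 1, while the other members stay at or below 0.76%.

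The changed miR-497a-5p reads carry a rare and toxic seed. They supplied 35% to 68.3% of its reads in 5 mice, but 4.11% in Tau tg 3, in which unannotated reads supplied 43 of 59.7 RPM. Over all reads GGCAGC averaged 51 ± 27.3 RPM for WT against 53.5 ± 9.76 RPM for Tau tg (SD, n = 3), and its limma adjusted p was 0.992. miR-497a-5p supplied 20.1 RPM of it on average and miR-16-5p 10.7 RPM, while reads without a miRNA annotation supplied 15.7 RPM. Some reads that differ from a member inside their sequence were left without a miRNA annotation by the authors. All reads with a family hairpin annotation but no mature miRNA annotation, whether or not they differ in this way, would add 1.52% to 2.65% to the family's total in each mouse.

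The opposite arms of the hairpins, the passenger strands, were at low levels in Ago. The 5p arm took at least 90.7% of the reads of each of 6 hairpins in each mouse, and at least 99.8% for miR-16. The 5p share was the most variable in miR-497a, at 96.6% ± 3.09 for WT against 95.7% ± 3.97 for Tau tg (SD, n = 3), and in miR-322, at 95.7% ± 3.03 and 94.9% ± 4.21. No hairpin differed between the groups by the exact permutation test, with adjusted p-values of 0.96 to 1. miR-503 was not tested for its low level, and its 5p share was 66.7% to 100%.

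The other products of these loci were listed as 17 miRNAs, of which 14 were in the table and 13 were tested. They hold the passenger arms and the miR-351, miR-542 and miR-450 hairpins that lie beside miR-322 and miR-503. None had a limma unadjusted p under 0.05, where 3.63% of all miRNAs did. Of the 13, 7 had a positive and 6 a negative log2 change, with a median of 0.57 against 0.25 for all miRNAs. Their mean levels ran from 1.79 RPM in miR-542-5p to 47.6 RPM in miR-497a-3p. Log2 changes of the passenger arms were -0.04 for miR-15a-3p, 0.57 for miR-15b-3p, 1.36 for miR-16-1-3p, -0.57 for miR-16-2-3p, -1.78 for miR-195a-3p, -0.18 for miR-497a-3p, -0.13 for miR-322-3p and 1.9 for miR-503-3p. Those of the other neighbours were 1.18 for miR-542-5p, 0.7 for miR-542-3p, 1 for miR-450a-5p and 1.06 for miR-450b-3p. The largest passenger-arm changes were imprecise, with an SE of 1.35 for miR-195a-3p, 1.26 for miR-503-3p and 1.41 for miR-16-1-3p. These arms were at 0 in some mice, namely miR-195a-3p in WT 3 and Tau tg 3, miR-503-3p in WT 1 and WT 3, and miR-16-1-3p in WT 2 and Tau tg 3. miR-351-5p, the neighbour of miR-322 and miR-503, had the lowest p of the list. It measured 32.3, 20.3 and 35.8 RPM for WT 1, 2 and 3, against 17.2, 10.9 and 2.45 RPM for Tau tg 1, 2 and 3. All Tau tg values were below all WT values. It had a log2 change of -1.71 ± 0.99 (SE), with a limma p of 0.105 and an adjusted p of 0.896.

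The miRNAs whose levels over the 6 mice were most like those of miR-16-5p were found among 275 with a mean of at least 100 RPM. They were miR-338-3p, miR-195a-5p and miR-379-3p, with Pearson r of 0.96, 0.94 and 0.92 on log2(RPM + 1). For miR-195a-5p they were miR-379-3p, miR-338-3p and miR-337-5p, with r of 0.99, 0.97 and 0.97. miR-338-3p, which is made in oligodendrocytes, measured 6594, 3819 and 2937 RPM for WT against 6593, 6257 and 4175 RPM for Tau tg, with WT 3 lowest and the WT mice in the same order as for miR-195a-5p. miR-219a-5p, another oligodendrocyte miRNA, did not share that order, at 3312, 9236 and 4720 RPM for WT against 6368, 3227 and 5971 RPM for Tau tg, with WT 2 highest and Tau tg 2 lowest. miR-219a-2-3p, the remaining oligodendrocyte marker, measured 1193, 535 and 785 RPM for WT against 1036, 1142 and 862 RPM for Tau tg. It was highest in WT 1 and lowest in WT 2, as was miR-16-5p. These points share libraries and their scaling, and the highest of 275 values is high by selection, so r is given as a description.

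Markers of other cells moved between mice as well. The 4 endothelial and mural markers summed to 8191 to 14931 RPM for WT against 11026 to 15397 RPM for Tau tg, with WT 1 and Tau tg 1 highest, as for the family total. Their sum was lowest in WT 3, whereas the family total was lowest in WT 2. Of 5 red blood cell markers 3 were detected, miR-486a-5p and miR-486b-5p being at 0, and they summed to 559 to 1071 RPM for WT against 475 to 1136 RPM for Tau tg. The 3 oligodendrocyte markers summed to 8442 to 13591 RPM for WT against 10627 to 13997 RPM for Tau tg. The 5 epithelial markers summed to 3105 to 9831 RPM for WT against 2274 to 2483 RPM for Tau tg. The 4 choroid plexus and ependyma markers summed to 2781, 2833 and 5987 RPM for WT 1, 2 and 3 against 11499, 2683 and 5943 RPM for Tau tg 1, 2 and 3, so that WT 1 was the lowest WT mouse there. The 6 microglia and other immune cell markers summed to 2093 to 2512 RPM for WT against 2191 to 2921 RPM for Tau tg, and the 2 pituitary markers to 287 to 545 RPM against 292 to 572 RPM. The part of these markers in the levels of the family was not tested, and fewer cells of a type cannot be told apart from less bound RNA per cell.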

How the data were processed

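Per the study's methods, the table came from the authors' SPOROS pipeline, in which trimmed reads were compiled into unique sequences, rare reads were dropped, the rest were searched against lists of small RNAs, and matches to artificial sequences were discarded. Values were deposited in RPM, after the authors scaled every sample to a common library size. As deposited, the columns summed to 960279, 939839 and 915719 RPM for WT 1, 2 and 3. For Tau tg 1, 2 and 3 they summed to 978886, 963910 and 965149 RPM, each above every WT sum. The deposited viability score of each 6mer seed, an average over cell lines in percent, was used unchanged. The table had 109434 rows, of which 65087 were above 0 in at least 1 mouse, and 0 columns of values had no sample. Read numbers, recovered from the RPM values, came out whole in 100% of cases, within a tolerance of about 0.001 RPM that widened in proportion to the value. Dropping rare reads makes low values incomplete.

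Reads were summed by miRNA, by sequence and by seed, and groups were compared by limma 3.58.1 (R 4.3.3, trend option) on log2(RPM + 1). Features averaging at least 1 RPM were tested, and low ones have understated fold changes on this scale. Values with 1 number per mouse were compared by exact two-sided permutation tests, with Benjamini-Hochberg adjustment. Groups came from the sample titles, and p-values measure the spread between these mice. Reads were placed on RefSeq hairpins (GRCm38.p6), except Mir15a, placed on GENCODE M21, from which all positions come. edgeR 4.0.16, DESeq2 1.42.0, other pseudocounts, filters and scalings, a replicate block, read limits and leaving out each mouse were the alternatives. The limma and edgeR fits and the exact test between groups were tested on simulated data, and the sign-flip test on fixed values. DESeq2 was not tested in this way. Other steps ran in Python 3.11.15 with pandas 2.3.3, NumPy 2.4.6, SciPy 1.17.1 and Matplotlib 3.10.9.

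The members, lists and tests were chosen with earlier results of these data known. The rule named all 7 members, the most abundant read of each, up to 5 further member reads with a mean of at least 10 RPM and a limma p under 0.05 by size of difference, the leading shifted read where such reads were at least 1%, seeds with at least 1% of the family's reads, the other products of the same loci, and the 3 miRNAs most like miR-16-5p and miR-195a-5p. The change at position 2 of miR-497a-5p, reads with substitutions and minor tails were looked up after values were seen.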

Additional observations from a re-analysis of the deposited data

How the results depend on the processing

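No member had an adjusted p under 0.05 under any alternative. Over 133 values, 7 members by 19 settings, the smallest adjusted p was 0.633, 1 value had an unadjusted p under 0.05 (miR-195a-5p without WT 1) and 14 turned sign. All miRNAs had a median log2 change of 0.25 as deposited, 0.08 under median-of-ratios scaling, 0.06 after quantile normalization and 0.15 when scaled to the miRNA reads. Signs turned for miR-16-5p under median-of-ratios scaling (-0.035) and DESeq2 (-0.037), and for miR-15b-5p under median-of-ratios scaling (-0.10), scaling to the miRNA reads (-0.043), edgeR (-0.068) and DESeq2 (-0.11). They also turned for the leading miR-16-5p read under median-of-ratios scaling (-0.10), quantile normalization (-0.094), scaling to the miRNA reads (-0.046) and DESeq2 (-0.11), and for AGCAGC under median-of-ratios scaling (-0.051), which edgeR put at 0.46 and DESeq2 at 0.38. Among passenger arms they turned for miR-15a-3p with a pseudocount of 0.1 (0.14), for miR-497a-3p with a pseudocount of 5 (0.20), edgeR (0.80) and DESeq2 (0.74), and for miR-322-3p with a pseudocount of 5 (0.00204), edgeR (0.18) and DESeq2 (0.14). The difference in the annotated-start share of miR-322-5p turned to 0.0977 percentage points for reads of at least 19 nt and 1.95 for sequences of at least 1 RPM.

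Counts of calls over all features moved more. DESeq2 called 5 miRNAs after adjustment. All sequences with an unadjusted p under 0.05, 803 in all, became 429 with a pseudocount of 5, 167 with a mean of at least 10 RPM, 2564 with edgeR and 3344 with DESeq2. Sequences called after adjustment, 10 in all, became 16 and 0 with pseudocounts of 0.1 and 5, 4 without a filter, 0 with a mean of at least 10 RPM, 6 after quantile normalization, 1 without the trend, 49 with edgeR and 459 with DESeq2. Seeds called after adjustment, 5 in all, became 3 with a pseudocount of 0.1, 0 without the trend, 2 with edgeR and 10 with DESeq2. Neighbours of the family with an unadjusted p under 0.05 rose from 0 to 1 after quantile normalization and without the trend. Member sequences with one, 7 in all, became 4 with a pseudocount of 5, 1 with a mean of at least 10 RPM and 4 without the trend. Where the construction does not show it, as fewer features tested under a stricter filter does, the cause was not tested.

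With 1 mouse left out, log2 changes ran from -0.28 to 0.085 for miR-15a-5p, -0.030 to 0.23 for miR-15b-5p, 0.35 to 0.87 for miR-195a-5p and -0.18 to 0.52 for miR-497a-5p. For the leading reads they ran from -0.018 to 0.20 in miR-16-5p, -0.45 to 0.081 in miR-15b-5p and -0.078 to 0.54 in miR-497a-5p. For the neighbours they ran from -1.63 to 0.82 in miR-15a-3p, -1.99 to 0.56 in miR-16-2-3p, -1.13 to 1.72 in miR-497a-3p, -1.06 to 0.86 in miR-322-3p, -0.039 to 1.24 in miR-542-3p and -0.40 to 2.14 in miR-450b-3p. Unadjusted calls ran from 18 (without Tau tg 3) to 50 (without WT 1) of miRNAs, 531 (without Tau tg 2) to 942 of sequences, 105 (without Tau tg 1) to 232 of seeds, 0 to 1 of members, 0 to 1 of neighbours and 2 (without Tau tg 2) to 10 (without WT 3) of member sequences. Adjusted calls ran from 0 to 1 of miRNAs (1 without Tau tg 1), 0 (without Tau tg 2) to 17 of sequences and 0 (without Tau tg 2) to 6 of seeds. The annotated-start difference of miR-322-5p ran from -3.47 to 3.996 percentage points, and differences in 5p share from -1.49 to 0.104 in miR-15b, -0.0470 to 0.0354 in miR-16, -3.04 to 0.905 in miR-497a and -2.94 to 1.27 in miR-322. Log2 ratios between neighbours in level ran from 1.57 to 1.71 for miR-16-5p over miR-15a-5p, 1.58 to 1.86 for miR-15a-5p over miR-497a-5p, -0.027 to 0.21 for miR-497a-5p over miR-195a-5p, 1.46 to 1.70 for miR-15b-5p over miR-322-5p and 2.81 to 3.79 for miR-322-5p over miR-503-5p, where 5 mice cannot reach the threshold.

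Over all miRNAs the replicate numbers gave no sign of pairing, with correlations of -0.002, -0.0692 and 0.0413 between same-numbered mice. With 3 mice per group, these values cannot exclude it. With the replicate block 22 sequences instead of 10 were called after adjustment, 22 miRNAs instead of 25 had an unadjusted p under 0.05, and 0 members did, with a p of 0.0749 for miR-195a-5p. Depth limits the low members most, since the floor of WT 3 was 2.75 RPM and miR-503-5p lay near the floor in WT 2.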
